A study of Mus musculus with 40 samples.

Results

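Sost, Dmp1, Mepe, Phex, Fgf23 and Pdpn are genes by which osteocytes, the cells embedded in bone, are commonly recognised. These 6 genes were taken by name from the expression tables of mouse rib tissue, out of 48733 genes in the full table and 21204 that entered the tests. All mice were wild type, either skeletally immature (7 weeks) or skeletally mature (over 10 months), and per the methods of the study they were female. In both ages a piece of rib was removed, and RNA was read at baseline (BL) and on days 0, 2, 5 and 14 after it (0dpr to 14dpr, for days post-resection). Each of the 10 groups held 4 libraries, except mature mice at 5dpr with 3, since the second replicate of that group was not analysed here. Per the labels, baseline tissue was a composite of bone, marrow and intercostal muscle and later tissue was callus. The labels place baseline collection after the resection, while the methods place it before. The labels do not say that libraries of a group came from separate animals, so p-values measure only the spread between these libraries.

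Osteocytes arise from osteoblasts that become surrounded by the matrix they lay down, and they then sense load and govern mineral and phosphate handling. Podoplanin, encoded by Pdpn, belongs to the early phase of this change, in which the embedding cell grows its processes. Dmp1, Mepe and Phex mark the stage at which the matrix mineralizes, and Sost and Fgf23 mark the mature osteocyte. Sclerostin, the product of Sost, blocks Wnt signalling through Lrp5 and Lrp6, and FGF23 is the hormone that makes the kidney excrete phosphate. Pdpn is the least restricted of the 6, being known also in lymphatic endothelium, fibroblasts and activated macrophages.

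The 6 genes lie on 5 chromosomes of GRCm38. Dmp1 (chr5:104202613-104214102, plus strand) and Mepe (chr5:104325329-104338611, plus strand) lie in the same cluster of genes for acidic matrix proteins. Sost lies at chr11:101962458-101967015 (minus strand), Phex at chrX:157162075-157415312 (minus strand), Fgf23 at chr6:127072902-127081408 (plus strand) and Pdpn at chr4:143267431-143299564 (minus strand). A miRNA, a snoRNA and a pseudogene lie inside the span of Phex, and reads counted to Phex could include theirs. The 250 bases before a RefSeq start are shown for Dmp1 and Mepe, which both fell from BL to 2dpr and rose from 5dpr to 14dpr. They are also shown for Sost and Pdpn, which had the largest fitted fall and the largest rise from BL to 2dpr in mature mice. The sequences are from RefSeq on GRCm38.p6, on the strand of the gene, and capitals mark the RUNX core motif TGTGGT on either strand.
Dmp1, chr5:104202367-104202616 (plus strand): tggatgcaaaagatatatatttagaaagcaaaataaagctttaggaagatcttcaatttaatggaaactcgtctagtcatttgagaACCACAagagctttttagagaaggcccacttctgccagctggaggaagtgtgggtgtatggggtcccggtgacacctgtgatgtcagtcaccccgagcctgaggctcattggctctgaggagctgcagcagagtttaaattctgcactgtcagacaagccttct
Mepe, chr5:104325079-104325328 (plus strand): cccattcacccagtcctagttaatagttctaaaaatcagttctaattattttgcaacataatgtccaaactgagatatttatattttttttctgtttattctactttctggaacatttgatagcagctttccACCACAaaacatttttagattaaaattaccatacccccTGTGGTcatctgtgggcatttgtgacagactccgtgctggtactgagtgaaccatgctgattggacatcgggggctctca
Sost, chr11:101967016-101967265 (minus strand): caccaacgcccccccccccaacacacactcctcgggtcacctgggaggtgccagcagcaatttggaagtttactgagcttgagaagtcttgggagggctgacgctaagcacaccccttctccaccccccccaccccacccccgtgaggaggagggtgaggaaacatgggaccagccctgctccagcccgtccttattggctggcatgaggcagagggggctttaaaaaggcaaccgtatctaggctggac
Pdpn, chr4:143299565-143299814 (minus strand): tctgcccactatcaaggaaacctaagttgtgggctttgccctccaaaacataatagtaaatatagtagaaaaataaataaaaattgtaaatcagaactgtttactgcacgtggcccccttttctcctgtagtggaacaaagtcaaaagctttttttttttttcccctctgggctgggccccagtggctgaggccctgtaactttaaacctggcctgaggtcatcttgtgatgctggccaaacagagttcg
RUNX proteins include Runx2, the master regulator of osteoblast formation. The Mepe window held 2 copies of the motif and the Dmp1 window 1, while the Sost and Pdpn windows held 0, as did those of Phex and Fgf23. A second RefSeq start of Dmp1 further upstream also had 0. The motif was present in 14% of 32851 promoter windows of the same length, and TATAAA, found in the Mepe window alone among these genes, in 12.4%. The matches are a description of letters, not of binding.

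Library totals ranged from 6075355 to 21546977 counts (median 9092201). Expression is given as CPM, the count of a gene relative to the total of its library, scaled by the trimmed mean of M values (TMM). Markers of osteoblasts, osteoclasts, skeletal muscle, erythroid cells and macrophages were present in every group, and none of the tested markers was at 0 throughout a group. The make-up of the tissue moved between stages. The summed muscle markers had, for immature mice, a median of 90800 CPM at BL, 141000 at 0dpr and 22100 at 2dpr, and for mature mice 60800, 139000 and 18400. The summed osteoblast markers had medians of 20600, 17400 and 11000 CPM at these stages among immature and 15100, 5580 and 4490 among mature mice, so muscle was highest at 0dpr and osteoblast markers were lowest at 2dpr. Replicate 3 at 0dpr was the lowest of its group for Sost, Dmp1, Mepe and Phex in both ages, and in immature mice it also had an osteoblast sum of 4170 CPM, against 16400 to 21100 CPM in the others. In such bulk tissue, fewer cells of a type and less RNA per cell cannot be told apart, and the part of tissue make-up in the changes below was not tested beyond the values given.

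**Figure D1:**
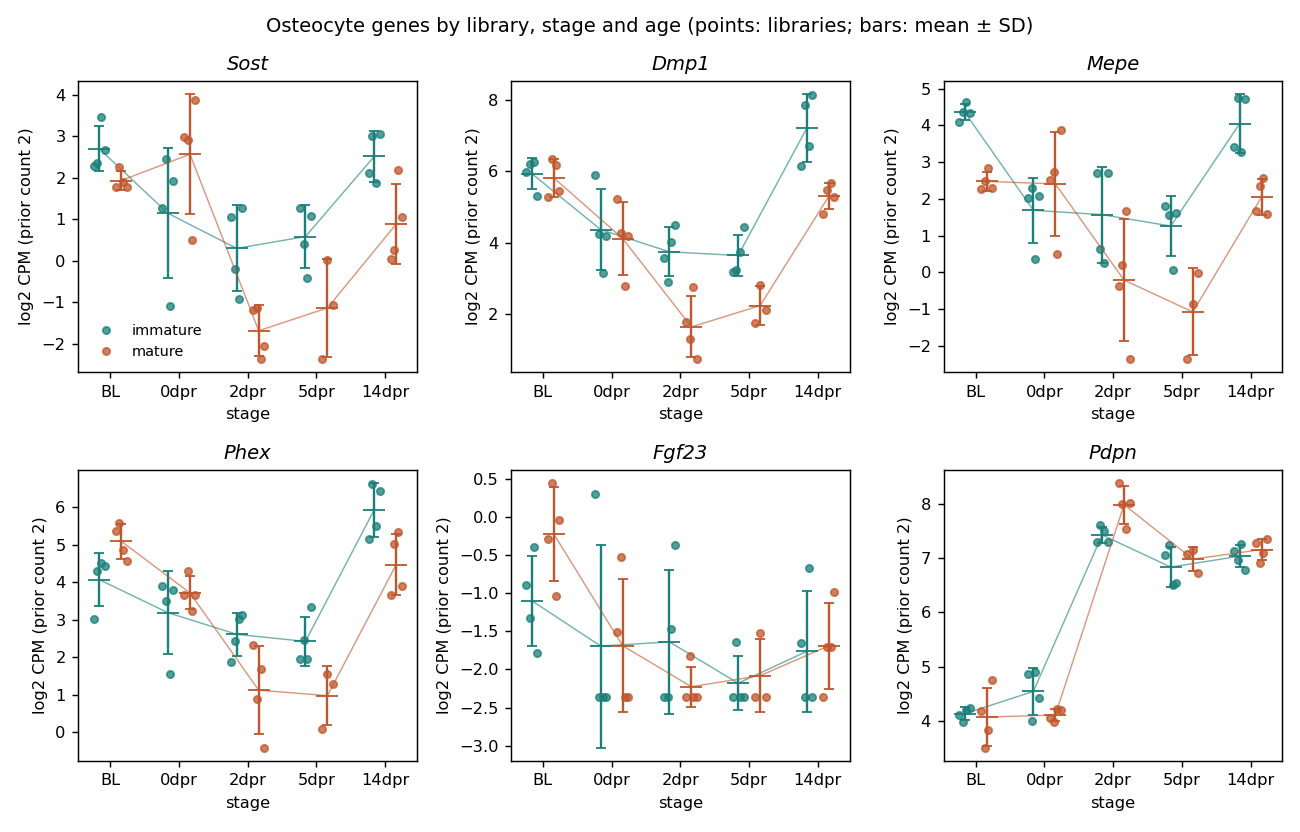
Level of each gene (log2 CPM with a prior count of 2) by stage, for immature and mature mice; points are libraries and bars are the mean ± SD of 4 libraries (3 for mature mice at 5dpr). Sost, Dmp1, Mepe and Phex are low at 2dpr and 5dpr and higher at 14dpr, while Pdpn rises at 2dpr and stays above BL.

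At BL, per kilobase of exon, Dmp1 was the highest of the 6 genes in both ages, with 22.8 ± 6.16 CPM per kb in immature mice and 21.4 ± 7.59 in mature mice (SD, n = 4). Dmp1 encodes an acidic matrix protein that nucleates mineral. Mepe, another phosphoprotein of the mineralizing matrix, had 12.3 ± 1.95 CPM per kb in immature mice but 3.24 ± 0.656 in mature mice. Phex, the membrane peptidase whose loss causes X-linked hypophosphatemia, had 2.84 ± 1.07 and 5.59 ± 1.75, so the order of Mepe and Phex differed between the ages. Sost had 3.24 ± 1.40 and 1.77 ± 0.312, and Fgf23 was the lowest with 0.167 ± 0.112 and 0.397 ± 0.201.

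On the day of resection few of the 6 genes differed from BL past the threshold, and whether the ages differed in this step was not tested. In immature mice Mepe fell to a 6.09-fold lower level at 0dpr, and in mature mice Dmp1 fell 2.93-fold and Phex 2.63-fold. Mepe in immature mice was 17.0, 20.4, 25 and 20.1 CPM at BL and 3.88, 4.68, 1.09 and 4.03 CPM at 0dpr. Every 0dpr library was below every BL library (log2 fold change -2.61 ± 0.68 SE, adjusted p = 0.0134), and Mepe was the single gene called of the 6, against 10.6% of all tested genes. The Mepe call was lost without immature replicate 3 at 0dpr (adjusted p = 0.0716), and without replicate 1, the highest for Dmp1 at 59.3 CPM, Dmp1 was called too (log2 fold change -2.09, adjusted p = 0.0129).

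Dmp1 in mature mice was 38.8, 81.2, 72.5 and 43.6 CPM at BL and 37.6, 19.1, 6.65 and 18.1 CPM at 0dpr (log2 fold change -1.55 ± 0.49 SE, adjusted p = 0.0199). The groups did not overlap, though the highest 0dpr library lay just under the lowest BL library. Phex in mature mice was 41.3, 47.3, 28.6 and 23.4 CPM at BL and 12.4, 19.5, 9.20 and 12.4 CPM at 0dpr (log2 fold change -1.40 ± 0.48 SE, adjusted p = 0.0316). These were 2 of the 6 genes, where 22.5% of all genes were called. Both calls were lost when the level of muscle markers entered the fit (adjusted p = 0.481 for Dmp1 and 0.627 for Phex). The summed muscle markers did not overlap between these groups (41700 to 82200 CPM at BL, 115000 to 232000 CPM at 0dpr). That fit can thus barely separate muscle level from stage, and no conclusion is drawn from it. Each call was also lost on leaving out single libraries. For both genes these were mature BL replicate 2 (0.0735 and 0.103) or 0dpr replicate 3 (0.10 and 0.111). For Phex they were also BL replicate 1 (0.0751), 0dpr replicate 1 (0.0801) or 0dpr replicate 4 (0.0559).

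Sost did not fall detectably at 0dpr. In mature mice it was 3.25, 4.61, 3.55 and 3.25 CPM at BL and 7.69, 7.36, 1.22 and 14.4 CPM at 0dpr (log2 fold change 1.06 ± 0.65 SE, adjusted p = 0.252). Replicates 1, 2 and 4 at 0dpr were above all BL libraries and replicate 3 was below them. In immature mice it was 4.68, 4.95, 10.9 and 6.22 CPM at BL and 2.24, 5.30, 0.273 and 3.62 CPM at 0dpr (adjusted p = 0.235).

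By 2dpr the 4 bone-restricted genes had all fallen below BL in both ages. This comparison was added after the values were seen. In immature mice Sost fell 5.28-fold, Dmp1 4.39-fold, Mepe 5.57-fold and Phex 2.85-fold. In mature mice Sost fell 25.3-fold, Dmp1 18.5-fold, Phex 14.6-fold and Mepe 5.33-fold. Relative to the mean log2 CPM of the osteoblast markers in the same library, a comparison also added after the values were seen, these falls were smaller. In mature mice Dmp1 was then 2.49-fold lower at 2dpr than at BL (exact permutation test, two-sided, p = 0.0571), Phex 2.17-fold lower (p = 0.0286, the smallest that 4 against 4 libraries allow), Sost 1.69-fold lower (exact p = 0.114) and Mepe 1.12 times as high (exact p = 0.8). In immature mice Mepe was 2.14-fold lower (exact p = 0.114), Sost 1.62-fold lower (exact p = 0.114), Dmp1 1.40-fold lower (exact p = 0.171) and Phex 1.18 times as high (exact p = 0.6). After adjustment over the 54 tests of this kind none passed. The falls given first are those of the edgeR fit, while the relative values use log2 CPM with a prior count of 2. The prior count shrinks falls to few reads, as in mature mice at 2dpr for Sost (3, 3, 0 and 1 reads) and Mepe (7, 11, 27 and 0). Its part in the smaller falls was not tested. On the CPM scale, with Pdpn, which rose, 5 of 6 genes were called in immature mice and all 6 in mature mice, against 37.3% and 40% of all genes.

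Sost at 2dpr was 1.88, 0.675, 0.335 and 2.21 CPM in immature mice (log2 fold change against BL -2.40 ± 0.70 SE, adjusted p = 0.00626). In mature mice it was 0.248, 0.260, 0 and 0.0463 CPM, which stands for 3, 3, 0 and 1 reads (log2 fold change -4.66 ± 0.88 SE, adjusted p = 5.68e-05). Neither group overlapped its BL. Dmp1 at 2dpr was 11.6, 7.20, 16.2 and 22.5 CPM in immature mice, from 62.6, 74.4, 76.3 and 39.2 CPM at BL (log2 fold change -2.13 ± 0.50 SE, adjusted p = 7.90e-04). Mature libraries had 3.22, 2.25, 6.55 and 1.48 CPM (log2 fold change -4.21 ± 0.56 SE, adjusted p = 2.20e-07). All 2dpr libraries of each age were below all BL libraries of that age.

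Phex at 2dpr was 3.45, 5.18, 7.87 and 8.48 CPM in immature mice, from 7.88, 19.5, 22.6 and 21.4 CPM at BL, and the groups overlapped (log2 fold change -1.51 ± 0.49 SE, adjusted p = 0.0147). In mature mice it was 4.79, 1.65, 3.00 and 0.555 CPM, well below BL (log2 fold change -3.87 ± 0.54 SE, adjusted p = 4.77e-07). Mepe at 2dpr was 6.28, 1.35, 1.00 and 6.27 CPM in immature mice and 0.578, 0.953, 3.00 and 0 CPM in mature mice. Each of these was below the BL libraries of its age (adjusted p = 0.00333 and 0.00824). The immature Phex call was lost without replicate 1 at 2dpr (adjusted p = 0.0559), where the log2 fold change was -1.31. With the muscle level in the fit the calls of Mepe in both ages and of Sost in immature mice were lost, while the estimates were larger than without it, at -2.83 for Mepe in immature mice (adjusted p = 0.152; -2.48 without), -2.76 in mature mice (0.124; -2.41 without) and -2.96 for Sost (0.157). The muscle sums did not overlap between BL and 2dpr in either age, so that fit too can barely separate muscle level from stage. The mature Mepe call was also lost when only mature BL and 2dpr were fitted (-2.29, adjusted p = 0.114).

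Between 0dpr and 2dpr the fall passed the test in mature mice, and the difference between the ages in this step was not tested. In mature mice Sost (log2 fold change -5.72 ± 0.89 SE), Dmp1 (-2.66 ± 0.56), Mepe (-2.76 ± 0.74) and Phex (-2.47 ± 0.54) all fell, and with Pdpn 5 of 6 genes were called against 47.6% of all genes. In immature mice Sost (-1.16 ± 0.71), Dmp1 (-0.85 ± 0.49) and Phex (-0.73 ± 0.50) had negative estimates and Mepe a positive one (0.13 ± 0.69), none past the threshold. There Pdpn was the single gene called, against 44% of all genes. The mature Mepe groups overlapped, and the call was lost when only these 2 groups entered the fit (log2 fold change -2.66, adjusted p = 0.091). It was also lost with the muscle level as a covariate (-3.29, adjusted p = 0.309). Both estimates were near or beyond the one given. The muscle sums of these groups did not overlap, so the covariate can barely separate muscle level from stage.

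Whether the ages differed in their BL to 2dpr change was tested directly, after the values were seen. The fall of Phex was 2.36 ± 0.71 log2 units smaller in immature mice, that of Dmp1 2.08 ± 0.72 and that of Sost 2.26 ± 1.12, while that of Mepe differed by -0.06 ± 1.19. After adjustment over all genes none of these passed (adjusted p = 0.296, 0.337, 0.532 and 0.997), and 0.00943% of all genes did. edgeR thus called 0 of the 6 and DESeq2 0. At an unadjusted p under 0.05 in edgeR there were 3 (Phex, Dmp1 and Fgf23), beside 2006 of the 21204 tested genes.

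**Figure D2:**
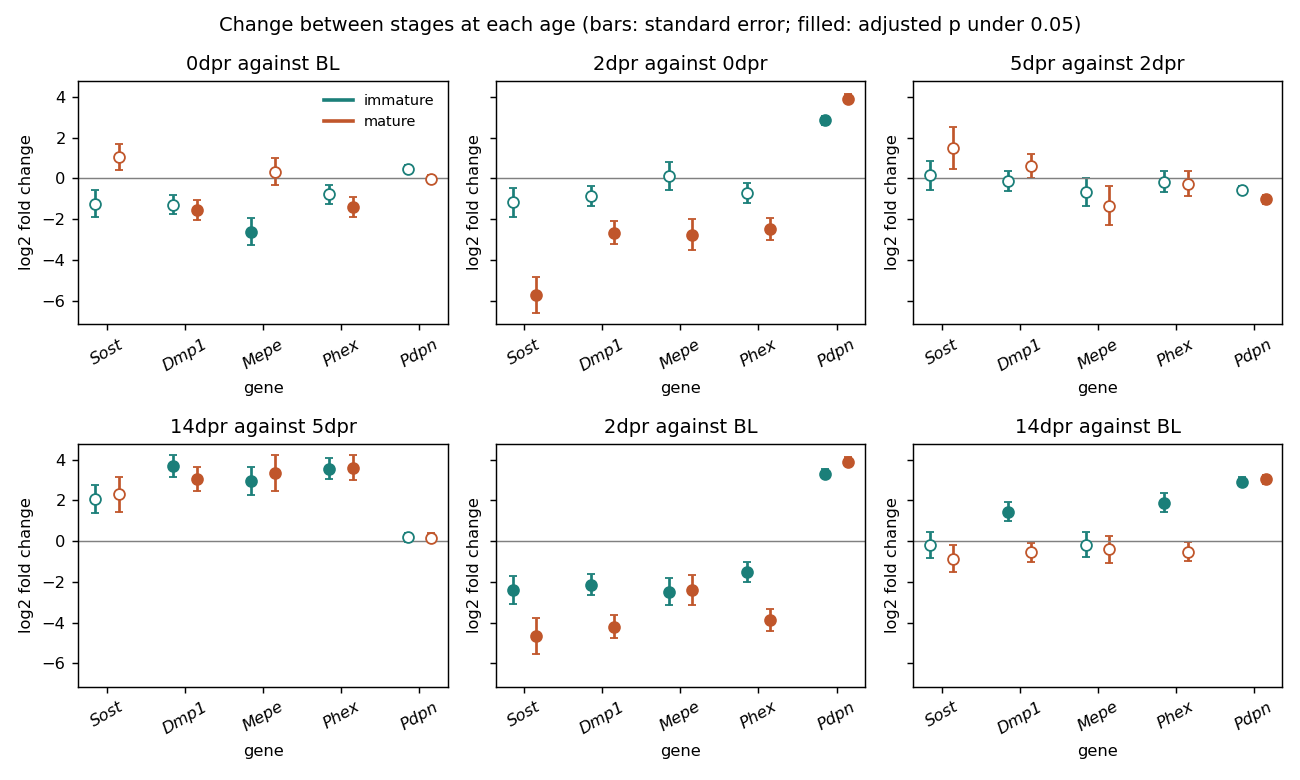
Log2 fold change between stages from the edgeR fit for 5 genes in immature and mature mice; bars are standard errors, filled points have an adjusted p under 0.05, and Fgf23 is left out for its low counts. Sost, Dmp1, Mepe and Phex fall from BL to 2dpr and have positive estimates from 5dpr to 14dpr in both ages, and at 14dpr the immature points of Dmp1 and Phex are filled above 0 against BL while the mature ones are open below it.

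From 2dpr to 5dpr no further change of Sost, Dmp1, Mepe or Phex passed the test in either age. edgeR called 0 of the 6 genes in immature mice, against 8.05% of all genes, and DESeq2 called 0. At an unadjusted p under 0.05 there was 1 (Pdpn) in immature mice, beside 4211 of the 21204 tested genes. In mature mice 1 (Pdpn) was called, against 14.5%. Sost at 5dpr was 2.22, 1.13, 0.560 and 1.91 CPM in immature mice and 0, 0.812 and 0.288 CPM in mature mice. Dmp1 was 8.88, 9.14, 13.2 and 21.4 CPM in immature mice and 3.19, 6.90 and 4.17 CPM in mature mice. The osteoblast sum was meanwhile higher than at 2dpr, with medians of 27100 CPM in immature and 16900 CPM in mature mice. Of the 9 osteoblast markers 2 rose in immature and 3 in mature mice and 0 fell, among them the collagen gene Col1a2 by 1.09 and 1.88 log2 units (adjusted p = 0.0186 and 9.47e-05). Of 8 other genes reported in osteocytes 2 rose and 0 fell in each age.

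Dmp1, Phex and Mepe rose between 5dpr and 14dpr in both ages. Dmp1 rose 13-fold, Phex 11.7-fold and Mepe 7.76-fold in immature mice, and 8.31-fold, 12.3-fold and 10.2-fold in mature mice. These 3 of 6 genes were called in each age, against 3.18% of all genes in immature and 4.18% in mature mice. The median log2 fold change of the 6 genes was 2.52 in immature and 2.67 in mature mice, beside -0.02 for all genes in both.

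Dmp1 at 14dpr was 70.4, 235, 105 and 282 CPM in immature mice (log2 fold change against 5dpr 3.70 ± 0.52 SE, adjusted p = 2.33e-05). In mature mice it was 27.8, 44.1, 50.6 and 38.8 CPM (3.06 ± 0.59, adjusted p = 0.00143). The groups at 5dpr and 14dpr did not overlap in either age. Phex was 35.1, 98.7, 45.1 and 86.1 CPM in immature mice (3.55 ± 0.52, adjusted p = 3.81e-05) and 12.3, 31.8, 39.9 and 14.6 CPM in mature mice (3.62 ± 0.60, adjusted p = 2.69e-04). Every one of these libraries was above every 5dpr library of its age.

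Mepe at 14dpr was 10.5, 26.9, 9.55 and 26.2 CPM in immature mice (2.96 ± 0.70, adjusted p = 0.0107) and 3.01, 4.92, 5.79 and 2.80 CPM in mature mice (3.35 ± 0.89, adjusted p = 0.0242). The 5dpr level it rose from was 0, 0.355 and 0.791 CPM in mature mice. The call was lost without immature replicate 4 at 5dpr (log2 fold change 2.62, adjusted p = 0.0579) and, in mature mice, without replicate 2 or 3 at 14dpr or replicate 1 or 3 at 5dpr (2.87 to 3.27, adjusted p = 0.0506 to 0.119), with estimates that stayed positive and within 1 SE of the one given. Sost was 4.14, 7.81, 3.47 and 8.18 CPM in immature and 0.844, 1.01, 4.35 and 1.87 CPM in mature mice. It did not overlap 5dpr in either age, with log2 fold changes of 2.07 ± 0.69 and 2.29 ± 0.84, but missed the threshold (adjusted p = 0.0995 and 0.118), while DESeq2 placed both below it (0.0408 and 0.0323). A difference between the ages in this rise passed the test for none of the 6 genes (every adjusted p = 1). There edgeR called 0% of all genes (901 at an unadjusted p under 0.05) and DESeq2 called 5 genes but 0 of the 6. The SE of that difference was 0.98 log2 units for Sost, 0.73 for Dmp1, 1.04 for Mepe and 0.69 for Phex, so a difference of such a size could be missed.

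In immature mice at 14dpr, replicates 2 and 4 were above replicates 1 and 3 for Sost, Dmp1, Mepe and Phex alike. The osteoclast sum was 2300, 5500, 2930 and 5550 CPM in these libraries, and the mean log2 CPM of the osteoblast markers was 7.47, 8.23, 7.46 and 8.43, so both were highest in the same libraries. The part of this split in the results was not tested.

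Set against BL, Dmp1 and Phex were higher at 14dpr in immature mice and neither passed in mature mice, but the difference between the ages in this change did not pass for any of the 6 in the fit over all groups. In immature mice Dmp1 (2.74-fold) and Phex (3.71-fold) exceeded BL at 14dpr, while Sost and Mepe stood at -0.18 ± 0.63 and -0.17 ± 0.62 log2 units from it (adjusted p = 0.869 for each). With Pdpn, 3 of 6 genes were called, against 31.4% of all genes. In mature mice Dmp1 (-0.55 ± 0.47), Phex (-0.51 ± 0.46), Mepe (-0.40 ± 0.66) and Sost (-0.86 ± 0.67) had negative estimates that did not pass the test, and Pdpn was the single gene called, against 33.5%. The immature Phex libraries at 14dpr were all above those at BL (log2 fold change 1.89 ± 0.47 SE, adjusted p = 0.00203), whereas those of Dmp1 overlapped BL (1.46 ± 0.47, adjusted p = 0.0167).

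The Dmp1 call was lost without immature BL replicate 6 (adjusted p = 0.0626) or 14dpr replicate 2 (0.056) or 4 (0.0899), and with the muscle level in the fit the estimates were 0.43 for Dmp1 and 0.81 for Phex (adjusted p = 0.83 and 0.638). The difference between the ages in this change was 2.40 ± 0.66 log2 units for Phex and 2.01 ± 0.67 for Dmp1, with adjusted p = 0.199 and 0.373. edgeR and DESeq2 called 0 of the 6 there, where edgeR called 0.0472% of all genes. At an unadjusted p under 0.05 in edgeR there were 2 of the 6, beside 1693 of the 21204 tested genes. Phex passed when only the 4 groups of this comparison were fitted (adjusted p = 0.0381).

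The osteocyte genes were also compared as ratios within each library. The tests used differences of log2 CPM, in which the prior count shrinks ratios of genes with few reads. These comparisons were added after the values were seen, and none passed 0.05 after adjustment. At BL, Mepe stood at 2.16, 1.05, 1.11 and 0.938 times the CPM of Phex in immature mice and at 0.112, 0.115, 0.245 and 0.201 times in mature mice. The groups did not overlap, and the log2 ratio differed by 2.92 (exact permutation test, two-sided, p = 0.0286, the smallest that 4 against 4 libraries allow). At 14dpr the ratio was 0.299, 0.272, 0.212 and 0.305 in the immature and 0.245, 0.154, 0.145 and 0.191 in mature mice. In immature mice it was thus below every BL library (log2 difference -2.18, exact p = 0.0286), while in mature mice 14dpr and BL overlapped (0.20, exact p = 0.543).

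The same held for Dmp1 over Mepe, which in immature mice went from 1.57 ± 0.43 log2 units at BL to 3.17 ± 0.33 at 14dpr (SD, n = 4; exact p = 0.0286) and in mature mice was 3.34 ± 0.36 and 3.26 ± 0.30 (exact p = 0.629). Sost over Phex went from -1.36 ± 0.57 to -3.41 ± 0.29 in immature mice (exact p = 0.0286), beside -3.15 ± 0.37 and -3.58 ± 0.83 in mature mice (exact p = 0.486). Sost over Mepe did not differ between BL and 14dpr in immature mice beyond the spread (0.14, exact p = 0.514), but was lower in immature than mature mice at BL (-1.13, exact p = 0.0286). Of the 24 ratio comparisons 8 reached the smallest possible p. After Benjamini-Hochberg adjustment over the 24 this is 0.0857, so none passed 0.05. All 8 used the same immature BL libraries, and the ratios share the genes Sost, Dmp1, Mepe and Phex. They are therefore not separate findings. Between the ages at 14dpr none of the 6 ratios reached it (smallest exact p = 0.0571, for Mepe over Phex).

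**Figure D3:**
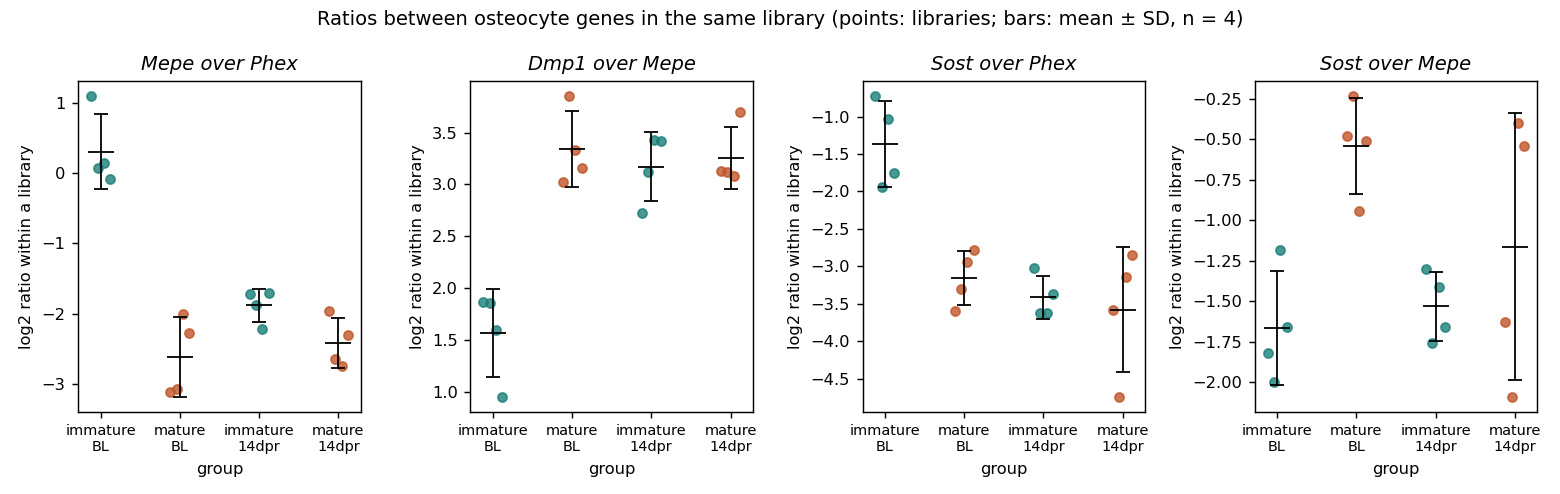
Log2 ratio between 2 osteocyte genes in the same library at BL and 14dpr for immature and mature mice; points are libraries and bars are the mean ± SD of 4 libraries. Mepe over Phex is 0.30 in immature mice at BL, -1.88 in immature mice at 14dpr, and -2.61 and -2.42 in mature mice.

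Between the ages, none of the 6 genes passed the test at any stage, although from 2dpr on Sost, Dmp1, Mepe and Phex had higher estimates in immature mice throughout. edgeR called 0 of the 6 at BL against 0.585% of all genes, 0 at 0dpr against 0.726%, 0 at 2dpr against 0.627%, 0 at 5dpr against 0% and 0 at 14dpr against 0.00943%. At an unadjusted p under 0.05 there were 2, 2, 5, 4 and 4 of the 6 at these stages. Of the 21204 tested genes 2482, 2278, 2812, 1081 and 968 were under it. DESeq2 called 0, 0, 2, 0 and 1 of the 6. At 5dpr edgeR called none of all genes, with 1081 at an unadjusted p under 0.05, and DESeq2 called 33. Median differences of the 6 genes were 0.04 log2 units at BL, 0.00 at 0dpr, 2.01 at 2dpr, 1.47 at 5dpr and 1.48 at 14dpr, beside medians of all genes between -0.02 and 0.04.

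At BL, Mepe was 1.92 ± 0.65 log2 units higher in immature mice (adjusted p = 0.194), where its 4 libraries at 17.0 to 25 CPM lay above the mature ones at 4.61 to 7.00 CPM. With only the BL libraries in the edgeR fit Mepe passed (adjusted p = 1.99e-04), where 475 genes were called in place of 124. Phex was lower in immature mice by 0.98 ± 0.47 log2 units without overlap (adjusted p = 0.407). At 2dpr the Dmp1 estimate was 2.17 ± 0.55 log2 units higher in immature mice, just short of the threshold (adjusted p = 0.0518), and past it in DESeq2 (0.0122). Sost at 2dpr, with few mature reads, had 3.12 ± 0.92 (adjusted p = 0.11). At 14dpr Dmp1 was 2.10 ± 0.48 log2 units higher in immature mice, without overlap (adjusted p = 0.194, and 0.0483 in DESeq2).

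Tested singly on log2 CPM by an exact permutation test, two-sided, 9 of 30 gene and stage pairs reached the smallest possible p of 0.0286. They were Sost at BL and 2dpr, Dmp1 at 2dpr, 5dpr and 14dpr, Mepe at BL and 14dpr, and Phex at BL and 5dpr, with Phex at BL the single pair that was lower in immature mice. Adjusted over the 30 tests this p is 0.0952. Only the osteocyte genes were put through this test. Whether 9 of 30 exceeds the share among other genes was therefore not tested. Relative to the osteoblast markers of the same library, Dmp1 at 14dpr was 2.17 times and Mepe 2.30 times as high in immature as in mature mice (exact p = 0.0286 for each, 0.11 adjusted over the 54 tests). On that scale Sost at 14dpr was 1.79 times (exact p = 0.114) and Phex 1.59 times as high (exact p = 0.0857). Dmp1 at 2dpr differed by 0.88 log2 units (exact p = 0.0857). Mepe at BL was 3.54 times as high in immature mice, and Phex was 2.13-fold lower there at BL and 1.81-fold lower at 0dpr (exact p = 0.0286 for each, 0.11 adjusted).

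**Figure D4:**
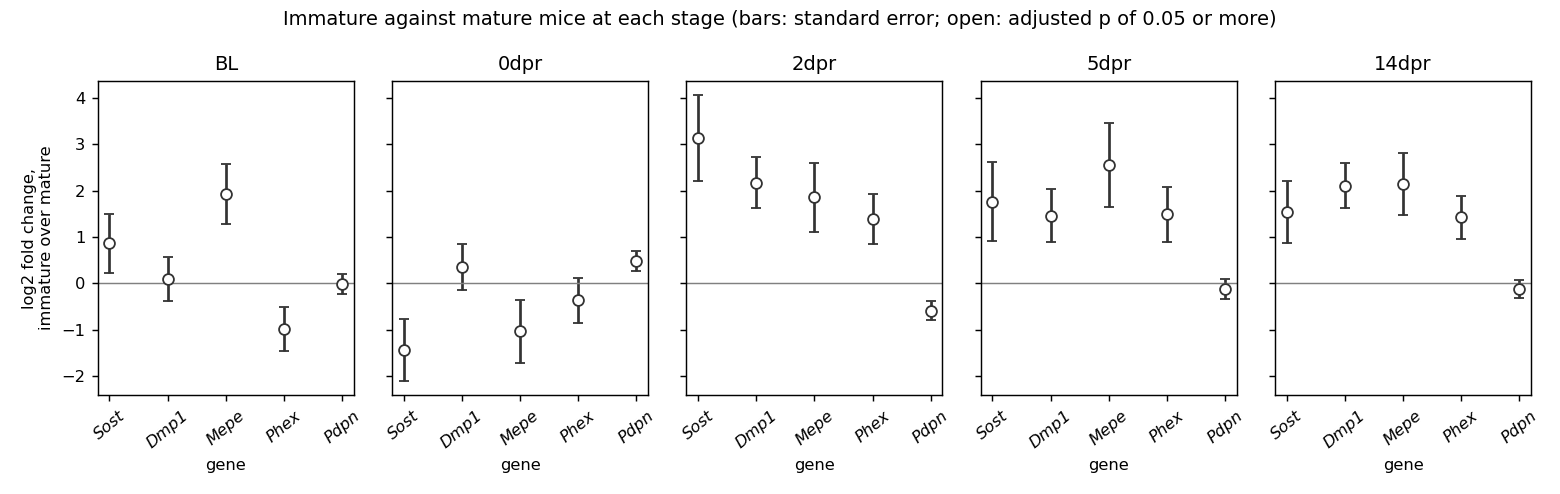
Log2 fold change of immature over mature mice at each stage from the edgeR fit for 5 genes; bars are standard errors and every point is open, for an adjusted p of 0.05 or more. Sost, Dmp1, Mepe and Phex have positive estimates at 2dpr, 5dpr and 14dpr, and mixed signs at BL and 0dpr.

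Fgf23 was at the edge of detection. It had 3, 2, 5 and 1 reads in the immature and 6, 14, 3 and 7 reads in the mature BL libraries, the latter the highest of any group. At 2dpr it had 0, 0, 2 and 5 reads in the immature and 0, 1, 0 and 0 in mature mice. The fall from BL to 2dpr in mature mice, from 30 reads to 1, passed the test (adjusted p = 0.00626), the single call of Fgf23 in edgeR, and at 14dpr these libraries held 0, 1, 1 and 3 reads. In immature mice at 0dpr all 7 reads were in replicate 1. At this depth no difference between the ages was detectable.

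Pdpn ran against the other genes, rising 7.25-fold from 0dpr to 2dpr in immature and 15.2-fold in mature mice. It was 17.0, 15.5, 18.2 and 18.7 CPM in immature mice at BL, 28.8, 15.7, 29.5 and 21.3 CPM at 0dpr and 158, 195, 182 and 157 CPM at 2dpr (log2 fold change against 0dpr 2.86 ± 0.22 SE, adjusted p = 8.51e-13). In mature mice it was 18.0, 11.2, 14.0 and 26.7 CPM at BL, 16.3, 15.5, 18.4 and 18.1 CPM at 0dpr and 335, 255, 186 and 260 CPM at 2dpr (3.92 ± 0.23, adjusted p = 9.30e-16). No 2dpr library came near the earlier ones. By 5dpr it fell 2.04-fold in mature mice, to 134, 142 and 106 CPM (adjusted p = 0.00124), and in immature mice it was 133, 151, 90.4 and 93.4 CPM (adjusted p = 0.0758). At 14dpr it remained 7.63-fold above BL in immature mice, with 141, 126, 153 and 110 CPM, and 8.27-fold above in mature mice, with 156, 120, 136 and 163 CPM (adjusted p = 2.30e-12 and 4.85e-13).

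Markers of other cells known to carry podoplanin moved in differing ways beside it. The summed lymphatic endothelium markers, Lyve1, Prox1, Flt4, Ccl21a and Mmrn1, had medians that for immature mice were 290 CPM at 0dpr and 132 at 2dpr and for mature mice 250 and 160, lower while Pdpn was higher. The summed macrophage markers had medians of 634 and 3230 CPM in immature and 583 and 3560 CPM in mature mice at these stages, higher together with Pdpn. The summed fibroblast markers, among them Pdgfra and Col3a1, were also higher at 2dpr. Their medians were 5490 and 10100 CPM for the immature and 1560 and 5790 CPM for the mature at these stages. At 5dpr, where mean Pdpn was down from 173 to 117 CPM in immature and from 259 to 127 CPM in mature mice, the fibroblast medians had risen further, to 27000 and 22600 CPM. The macrophage medians were then lower than at 2dpr, at 2260 and 2980 CPM, and the lymphatic endothelium medians higher, at 145 and 184 CPM. At 14dpr the fibroblast medians were 24100 and 27100 CPM. At 14dpr, where Pdpn was still above BL, the lymphatic endothelium medians were 351 CPM in immature and 413 CPM in mature mice. They were thus above the BL medians of 202 and 231 CPM. The macrophage medians at 14dpr were 2270 and 2600 CPM, also above those at BL (653 and 858 CPM). The part of these cell types in the Pdpn values was not tested. Of 7 genes whose products bind podoplanin or work with it, 5 rose and 2 fell from 0dpr to 2dpr in each age. Cd44, a hyaluronan receptor that associates with podoplanin, rose by 2.43 and 2.83 log2 units (adjusted p = 3.30e-12 and 6.70e-14), and Clec1b, the platelet receptor of podoplanin, fell by 2.11 and 2.58 (adjusted p = 0.00262 and 1.86e-04).

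**Figure D5:**
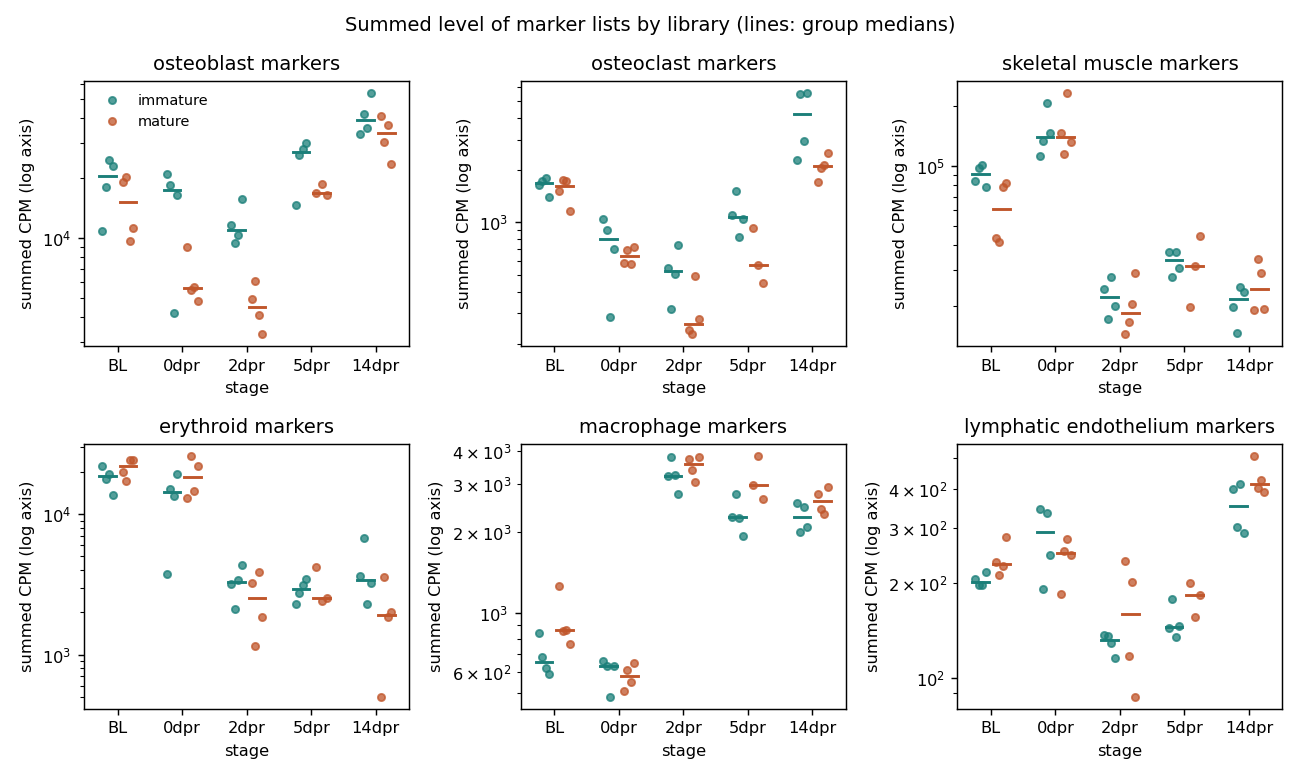
Summed CPM of 6 marker lists (log axis) by stage for immature and mature mice; points are libraries and lines are group medians. Muscle markers peak at 0dpr, osteoblast and osteoclast markers are lowest at 2dpr and highest at 14dpr, and lymphatic endothelium markers are lower at 2dpr than at 0dpr while macrophage markers are higher.

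Other genes of the osteocyte and its pathways moved in part with the members. Here and below, genes were named by the size of their called change in each comparison. A value given for a single age is thus no sign of a difference between the ages. Of all tested genes, 21.8% rose from 0dpr to 2dpr and 22.2% fell among immature mice, with 22.7% and 24.9% among mature ones, and from 5dpr to 14dpr 1.73% rose and 1.45% fell, with 1.95% and 2.23%. Of 8 tested genes reported in osteocytes, 5 fell and 0 rose from 0dpr to 2dpr in immature mice, and 6 fell and 1 rose in mature mice, among them Ptprz1, a receptor phosphatase (log2 fold change -2.47 and -2.66, adjusted p = 1.01e-06 and 2.74e-07). From 5dpr to 14dpr 3 rose and 0 fell in each age, and their median log2 fold change was 0.93 in immature and 1.06 in mature mice. Dkk1, a secreted Wnt inhibitor like sclerostin, rose by 2.79 and 3.25 log2 units (adjusted p = 0.00323 and 0.00622). At 14dpr against BL, Ptprz1 was lower in mature mice (-1.51, adjusted p = 5.26e-04).

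Of 9 sclerostin receptors and Wnt response genes, 6 fell and 0 rose from 0dpr to 2dpr in each age. Lrp4, which anchors sclerostin, fell by 1.31 log2 units in immature mice (adjusted p = 8.43e-06), and Axin2, a Wnt target, by 2.04 in mature mice (adjusted p = 1.47e-07). Lrp4 rose from 5dpr to 14dpr by 1.09 and 1.18 log2 units (adjusted p = 0.00226 and 0.00255), and in mature mice it was still lower at 14dpr than at BL (-1.13, adjusted p = 8.87e-05). The sum of these 9 genes had medians of 380 CPM at BL and 390 CPM at 14dpr in mature mice. Of 10 phosphate and FGF23 genes, at 2dpr against 0dpr 3 had risen and 4 fallen in the immature and 4 risen and 3 fallen in the mature. Fam20c, the kinase that phosphorylates Dmp1, Mepe and FGF23, rose by 1.80 and 1.38 log2 units (adjusted p = 8.24e-07 and 4.07e-05). Galnt3, which protects FGF23 from cleavage, was lower at 14dpr than at BL in mature mice (-1.61, adjusted p = 0.00215). The sum of the 10 phosphate and FGF23 genes had medians of 412 CPM at BL and 494 CPM at 14dpr in mature mice.

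Of 9 mineralization genes, at 2dpr against 0dpr 2 had risen and 5 fallen in the immature, and 2 risen and 4 fallen in the mature. Spp1, the osteopontin gene in the same cluster as Dmp1 and Mepe on chromosome 5, rose by 3.91 and 4.33 log2 units (adjusted p = 1.03e-08 and 1.26e-09). Bglap, the osteocalcin gene, fell by 2.06 and 3.34 (adjusted p = 0.0113 and 2.40e-04). At 14dpr against BL, Bglap was lower in mature mice (-2.10, adjusted p = 0.0127), and Spp1 was higher in immature mice (1.35, adjusted p = 0.0109). The other age is not given for either gene, so these values do not compare the ages. In mature mice the sum of the 9 mineralization genes was 1560 to 1870 CPM at BL and 1960 to 2700 CPM at 14dpr, opposite to Bglap.

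Across the 39 libraries, the log2 CPM of Dmp1 and Phex followed each other most closely among the members (Pearson r = 0.918), then Mepe and Sost (0.866) and Mepe and Dmp1 (0.845). Pdpn ran opposite to Sost (-0.617). These correlations describe libraries that share stage, tissue make-up and depth. Among 16086 genes with a mean of at least 1 CPM, the pattern most like that of Dmp1 was that of Wif1 (0.926), Acp5 (0.923) and Alpl (0.913), and that of Phex was most like Dkk1 (0.916), with Rerg (0.900) also among its 3 nearest. Sost was most like Ccdc194 (0.878), Dlx5 (0.859) and Col22a1 (0.859), and Mepe most like Wif1 (0.854), Fgfr2 (0.839) and Omd (0.836). Pdpn was most like Anxa4 (0.984), Ctsl (0.976) and Myof (0.976), none of them among the 3 nearest to another member.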

How the data were processed

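Bulk RNA-seq libraries (stranded TruSeq, paired-end) had been aligned by the authors to GRCm38 with STAR 2.5.2a, per the labels. They deposited whole-number read counts per gene, for 48733 genes and for a filtered set of 21204 whose filter is not given in the sources used here, and a normalised signal, TMM-scaled CPM (counts relative to the library total), which the counts gave again to within a relative difference of 5e-15. Of 40 samples, 39 had a column, and 0 columns were left unmapped. The sequencing run of each library was not given in the sources used here.

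Counts of the filtered set were fitted with edgeR 4.0.16 (R 4.3.3; limma 3.58.1), with TMM factors, 1 coefficient per group over all 10 groups, the quasi-likelihood test and Benjamini-Hochberg adjustment over all genes at 0.05. The 17 planned comparisons were successive stages and 14dpr against BL at each age, the ages at each stage, and 2 differences between the ages; 3 comparisons with BL at 2dpr, the levels relative to osteoblast markers and the ratios between members were added after the values were seen. Log2 CPM used a prior count of 2. Fold changes are those of the fit, and SE is their standard error. DESeq2 1.42.0, other filters, other factors, fewer libraries, a replicate block and a muscle score (mean log2 CPM of 15 markers) were alternatives. The tests were checked on simulated data.

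The 6 genes and all lists were chosen with earlier results of these data known. Genes named from a list were taken from the 2 with the largest called changes at a mean of at least 1 CPM in each comparison. The listed genes Wnt1, Dspp, Cyp24a1 and Matn1 were not in the filtered table. Replicate numbers paired the libraries only between the ages at 0dpr, where the deviations of all 4 pairs correlated (0.178 to 0.296). This pairing comes from the data, not the labels. No libraries within a group agreed within sampling noise. 1 of the genes nearest to Phex is not reported here.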

Additional observations from a re-analysis of the deposited data

Results flagged for a closer look

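In a test for a single far library in each group of 4 (54 groups of a gene, of which chance alone would pick out about 1 in 20), 3 were picked out, all of them Fgf23 in a group where the other libraries held 0 reads. They were replicate 1 of immature mice at 0dpr (1.05 CPM, 7 reads), replicate 3 of immature mice at 5dpr (0.125 CPM, 1 read) and replicate 2 of mature mice at 2dpr (0.0866 CPM, 1 read). The first of these also had the highest Dmp1 of its group, at 59.3 CPM, and the highest osteoblast sum, at 21100 CPM. Where the other libraries of a group hold 0 reads, the test picks out any library with a read. The 3 flags were thus fixed by the counts, and the rate of 1 in 20 does not hold for them.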

How the results depend on the processing

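Over 20 comparisons and 6 genes (120 values), no called change turned its direction under the alternatives tried. RLE factors kept all 120 on their side of the threshold, DESeq2 kept 115, all genes with at least 1 count 119, filterByExpr 99 of 100 (Fgf23 was filtered out), only the groups compared 113, the replicate block 118 and the muscle score 110. Leaving out 1 library at a time gave 1080 refitted values, called or not, of which 17 lost a call and 4 gained one. Most of the 1080 had no call to lose.

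Counts of members called moved by over 1.5 times in these cases. With the replicate block, immature mice at 0dpr against BL had 0 in place of 1, as Mepe was lost (adjusted p = 0.0527), and Dmp1 was lost at 14dpr against BL (0.0811). It changed no other call of the 6 genes. The numbers pair libraries only at 0dpr between the ages, where the block changed no call. Elsewhere they do not (mean correlation -0.0118 over 78 pairs), and what a call lost there means was not tested. With the block the log2 fold change was -2.575 for Mepe at 0dpr against BL (-2.608 without). For Dmp1 at 14dpr against BL in immature mice it was 1.27 (1.455 without). With only the groups compared, the count was 1 for 5dpr against 2dpr in immature mice (0 before), 2 for 14dpr against BL in mature mice (1 before), 1 for the ages at BL (Mepe, 0 before) and 1 for the age difference at 14dpr against BL (0 before). With the muscle score it was 1 for 14dpr against BL in immature mice (3 before), 2 in mature mice (1 before), 0 for 0dpr against BL in mature mice (2 before), 3 for 2dpr against BL in immature mice (5 before) and 1 for the ages at 2dpr (0 before). For the ages at 2dpr the count was also 2 in DESeq2 and 1 with either other filter, and for the ages at 14dpr 1 in DESeq2. Smaller moves were from 5 to 4 for mature 2dpr against 0dpr and from 6 to 5 against BL, with only the groups compared or with the muscle score (Mepe in each), and from 3 to 4 (Sost) for 14dpr against 5dpr in DESeq2 at each age and, in immature mice, with only the groups compared. Without 1 library it ranged from 0 to 2 for 0dpr against BL at each age (1 and 2 before), from 0 to 1 for 5dpr against 2dpr in immature mice and for the ages at 2dpr, from 2 to 3 for 14dpr against 5dpr at each age and for 14dpr against BL in immature mice, from 4 to 5 for 2dpr against BL in immature mice, and from 7 to 10 for the permutation tests (9).

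Counts over all genes moved more, and are given with the count as reported after a slash. With the muscle score they were 876/2257 for immature 0dpr against BL (72% against 56.2% higher), 222/4775 for mature (77.5% against 52.7%), 1510/9324 and 1477/10100 for 2dpr against 0dpr, 1724/3084 for mature 5dpr against 2dpr, 1930/6667 for immature 14dpr against BL, 2505/7911 and 4269/8488 for 2dpr against BL, 64/124, 290/133 and 3/2 for the ages at BL, 2dpr and 14dpr, and 6/10 and 25/2 for the age difference in the change from BL to 14dpr and 2dpr. With only the groups compared they were 48/2257 for immature 0dpr against BL, 2989/1707 and 1875/674 for immature 5dpr and 14dpr against the stage before, 6120/10100, 714/3084 and 2589/886 for mature 2dpr, 5dpr and 14dpr, 4982/8488 for mature 2dpr against BL, 475/124, 0/154, 4/133, 6/0 and 5/2 for the ages from BL to 14dpr, and 180/10 and 0/2 for the age differences. The block gave 802/2257 for immature 0dpr against BL and 0/2 for the age difference at 2dpr. DESeq2 gave 1029/674 and 1386/886 at 14dpr against 5dpr (in mature mice 57.6% against 46.7% higher), 334/124 (50.9% against 61.3% higher), 349/154, 428/133, 33/0 and 32/2 for the ages, and 59/10, 59/2 and 5/0 for the age differences at 14dpr and 2dpr against BL and at 14dpr against 5dpr. RLE gave 6/10 at 14dpr against BL. The filters gave 3/2 and 5/2 for the ages at 14dpr, 0/2 and 4/2 for the age difference at 2dpr, and all genes 2/0 at 14dpr against 5dpr. Without 1 library, counts ranged from 806 to 3413 for immature 0dpr against BL and from 27 to 256 for the ages at BL. In both ages the summed muscle markers did not overlap between BL and 0dpr, 2dpr or 14dpr, nor between 0dpr and 2dpr. Fits with the muscle score can barely separate muscle level from stage there. The cause of the moves in the counts was not tested.

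The likest genes of Fgf23 by Pearson correlation shared 0 of 3 with those by Spearman correlation, as did those of Pdpn. Depth limits Fgf23, with at most 14 reads in a library, and Sost and Mepe in mature mice at 2dpr and 5dpr.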
